A study of Mus musculus with 24 samples.

Results

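Lep, Mest, Sfrp5 and Bmp3 are 4 genes known as markers of adipocyte enlargement and fat mass expansion. They were taken by gene symbol from the 56895 entries of each deposited table of retroperitoneal white adipose tissue, and each symbol occurred once. The 4 genes were chosen with earlier results of the same libraries known, so their values in all groups are given as a description without a test. RNA of 24 mice, C57BL/6J by the labels and C57BL/6JRJ in the study's methods, was sequenced, with 3 mice in each of 8 groups formed by the diet of the mother, the diet of the offspring and sex. The CTRL mothers received AIN-93G diet with 1.0 IU of vitamin D3 per g, and the VDD (vitamin D deficient) mothers the same diet with 0.0 IU per g, for 8 weeks before mating and through gestation. From birth on, every mother received the control diet, so the CTRL and VDD offspring differed by maternal diet before birth. From 6 weeks of age, the offspring were fed either the low fat diet AIN-93M (LF) or a high fat diet (HF) with 45% of its energy from fat, for 8 weeks. The groups were therefore CTRL LF, CTRL HF, VDD LF and VDD HF in males and the same 4 in females. All mice were fasted overnight before the tissue was taken. No source used here gives the litter of a mouse, and p-values below measure the spread between these mice only.

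Leptin, the product of Lep, is the hormone by which adipocytes signal the size of the fat store, and enlarged adipocytes release more of it. Mest (mesoderm specific transcript, or Peg1) is an imprinted gene expressed from the paternal allele, and its product is a protein of the hydrolase family in the endoplasmic reticulum that is abundant in expanding fat. Sfrp5 encodes a secreted protein that binds Wnt ligands and keeps them from their Frizzled receptors, and it is made by adipocytes as they enlarge. Bmp3 encodes an atypical member of the bone morphogenetic protein (BMP) family that dampens the signalling of other BMPs through activin type II receptors.

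In the GENCODE M21 annotation of GRCm38, which is the mm10 build of the submitters' processing notes, Lep lies at chr6:29060220-29073877 on the plus strand and Mest at chr6:30723547-30748465 on the plus strand of the same chromosome. Sfrp5 lies at chr19:42197971-42202252 on the minus strand, and Bmp3 at chr5:98854415-98884396 on the plus strand. The Mest gene holds Mir335 in an intron, and 912 of its exonic bases lie inside Copg2, which is read from the opposite strand. The libraries were made with a kit that marks the strand, but no source used here gives the strand setting of the counting, so reads of these 912 bases may have been shared or left out.

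As levels of the 4 genes varied together in males, the 250 bases before the annotated starts are shown for the 3 genes that have an entry in the RefSeq promoter table of GRCm38.p6. Each sequence reads from 5′ to 3′ in the direction of the gene. Capitals mark GGGCGG (the GC box) and TTGCG (a core motif of C/EBP factors, known for their part in adipocyte genes) on either strand.

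Lep, chr6:29059971-29060220, plus strand: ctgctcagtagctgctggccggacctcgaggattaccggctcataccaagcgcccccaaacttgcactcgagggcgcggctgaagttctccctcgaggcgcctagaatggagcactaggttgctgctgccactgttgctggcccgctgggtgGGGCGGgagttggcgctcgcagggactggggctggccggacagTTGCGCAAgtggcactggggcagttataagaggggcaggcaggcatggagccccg
Mest, the second of 3 starts in the table, chr6:30737800-30738049, plus strand: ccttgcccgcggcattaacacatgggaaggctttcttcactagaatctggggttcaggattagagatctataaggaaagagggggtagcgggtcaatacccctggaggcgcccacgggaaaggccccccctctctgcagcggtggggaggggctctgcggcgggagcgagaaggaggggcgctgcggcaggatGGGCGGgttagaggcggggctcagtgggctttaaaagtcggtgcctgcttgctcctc
Sfrp5, chr19:42202253-42202502, minus strand: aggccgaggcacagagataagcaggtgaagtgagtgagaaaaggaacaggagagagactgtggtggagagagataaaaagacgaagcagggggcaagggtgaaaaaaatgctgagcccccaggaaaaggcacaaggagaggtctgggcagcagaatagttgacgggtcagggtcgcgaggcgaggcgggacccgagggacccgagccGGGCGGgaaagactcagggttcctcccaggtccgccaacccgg

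GGGCGG was present in each of the 3 windows, 98 bases before the Lep start, 57 before this Mest start and 43 before the Sfrp5 start, and 32.7% of the 32851 promoter windows of the table held it. TTGCG was found in the Lep window only, on both strands as the overlapping TTGCGCAA (52 and 55 bases before the start), and 14.5% of all windows held TTGCG. The E-box CANNTG, held by 66.2% of all windows, had 2 matches in the Lep window, both overlapping TTGCGCAA, 1 in that of Mest and 1 in that of Sfrp5. TATAAA (in 12.4% of all windows), CCAAT (33.8%), AGGTCA (14%), AGGTCANAGGTCA (0.0335%) and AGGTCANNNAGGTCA (0.00609%), the last of which is the spacing bound by the vitamin D receptor with RXR, had no match in the 3 windows. A match or its lack describes these letters and not the binding of a factor.

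The libraries held 13346779 to 18484346 reads on genes (median 15933506), and each of the 4 genes had at least 46 reads in every male and at least 16 in every female, with both lowest values in Sfrp5. Levels below are reads scaled together over the 24 libraries (scaled reads), and log2 differences are those of the deposited log2(normalized reads + 1) values of the 6 libraries of each comparison, as the second group minus the first, with their standard error (SE). All 8 adipocyte markers (Adipoq, Plin1, Cidec, Fabp4, Lipe, Lpl, Pparg and Cebpa) had at least 10 scaled reads in every library, and their sum ranged from 387005 to 1050473. Libraries differed in other markers. The summed 8 skeletal muscle markers ranged from 128 to 927045 scaled reads and exceeded 10000 in 9 libraries, with the highest sums in VDD LF male 2310 (927045) and VDD HF males 2307 (318119) and 2298 (206618). In 6 libraries the name holds the word renal, which no source used here explains. The 6 kidney markers summed to at most 7076 scaled reads, in VDD LF female 2303, whose name lacks that word. Results are given with and without these libraries where they moved them.

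Lep differed most between LF and HF in the male offspring of VDD mothers. In CTRL LF males the 3 mice had 5372, 4093 and 2372 scaled reads of Lep. In CTRL HF males they had 6591, 10145 and 5847. All 3 CTRL HF males thus lay above all 3 CTRL LF males, by a log2 difference of 0.96 (SE 0.43). In VDD LF males, Lep was at 117, 629 and 454 scaled reads. In VDD HF males it was at 15675, 15908 and 14378. The LF values lay below and the HF values above those of every CTRL male, and the log2 difference between VDD LF and VDD HF males was 5.57 (SE 0.74), a 47.4-fold difference of geometric means.

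In females, the spread of Lep within groups was wide for CTRL mothers and narrow for VDD mothers. CTRL LF females had 993, 586 and 2514 scaled reads, and CTRL HF females had 7038, 14355 and 2960. The 2 groups did not overlap, although CTRL HF female 2292 came close to CTRL LF female 2335, and the log2 difference was 2.53 (SE 0.90). VDD LF females had 1939, 1898 and 2060 scaled reads, and VDD HF females 3413, 2879 and 5300. Their log2 difference was 0.93 (SE 0.26), again without overlap.

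Mest, the imprinted gene of the 4, had 4591, 2062 and 2178 scaled reads in CTRL LF males and 6733, 8674 and 3701 in CTRL HF males. These groups overlapped, at a log2 difference of 1.12 (SE 0.52). VDD LF males had 80.7, 998 and 132 scaled reads, and VDD HF males 9344, 9244 and 6756. The LF mouse 2302, with 998, stood above the other two, and even so all VDD HF males were above all VDD LF males by 5.24 on the log2 scale (SE 1.12), or 37.7-fold. CTRL LF females had 1289, 458 and 230 scaled reads, and CTRL HF females 3620, 3000 and 1236, which overlapped at a log2 difference of 2.18 (SE 0.87). VDD LF females had 164, 122 and 213, and VDD HF females 566, 389 and 568. The latter groups did not overlap (log2 difference 1.62, SE 0.29), but all 6 VDD females were below every CTRL HF female.

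Sfrp5, the Wnt antagonist, was at its highest in HF males and at its lowest in females. CTRL LF males had 783, 372 and 868 scaled reads and CTRL HF males 5486, 3340 and 2535, a log2 difference of 2.49 (SE 0.50) without overlap. VDD LF males had 58.9, 276 and 249 scaled reads and VDD HF males 6425, 4211 and 5624. Here the groups were far apart, with a log2 difference of 5.05 (SE 0.73), or 33.2-fold. In CTRL LF females, Sfrp5 was at 33.7, 15.9 and 113 scaled reads, and in CTRL HF females at 216, 573 and 81.2. The spread within both groups was large and they overlapped (log2 difference 2.40, SE 1.14). VDD LF females had 45.1, 48.1 and 45.5 scaled reads, and VDD HF females 93.8, 52.0 and 65.9. The 6 values lay close together, at a log2 difference of 0.56 (SE 0.25) without overlap.

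Bmp3, the BMP antagonist, had the narrowest range of the 4 over the 24 libraries. CTRL LF males had 468, 387 and 257 scaled reads and CTRL HF males 747, 1230 and 724, a log2 difference of 1.27 (SE 0.36) without overlap. VDD LF males had 102.5, 134 and 93.6 scaled reads and VDD HF males 1228, 1070.2 and 1280. Both groups were tight and far apart, with a log2 difference of 3.44 (SE 0.18), or 10.9-fold. CTRL LF females had 271, 269.5 and 231 scaled reads and CTRL HF females 1031, 1014.5 and 552, a log2 difference of 1.67 (SE 0.31) without overlap. VDD LF females had 332, 506 and 362, and VDD HF females 445, 580.5 and 315. These 6 values were interleaved, and the log2 difference was 0.14 (SE 0.32).

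**Figure D1:**
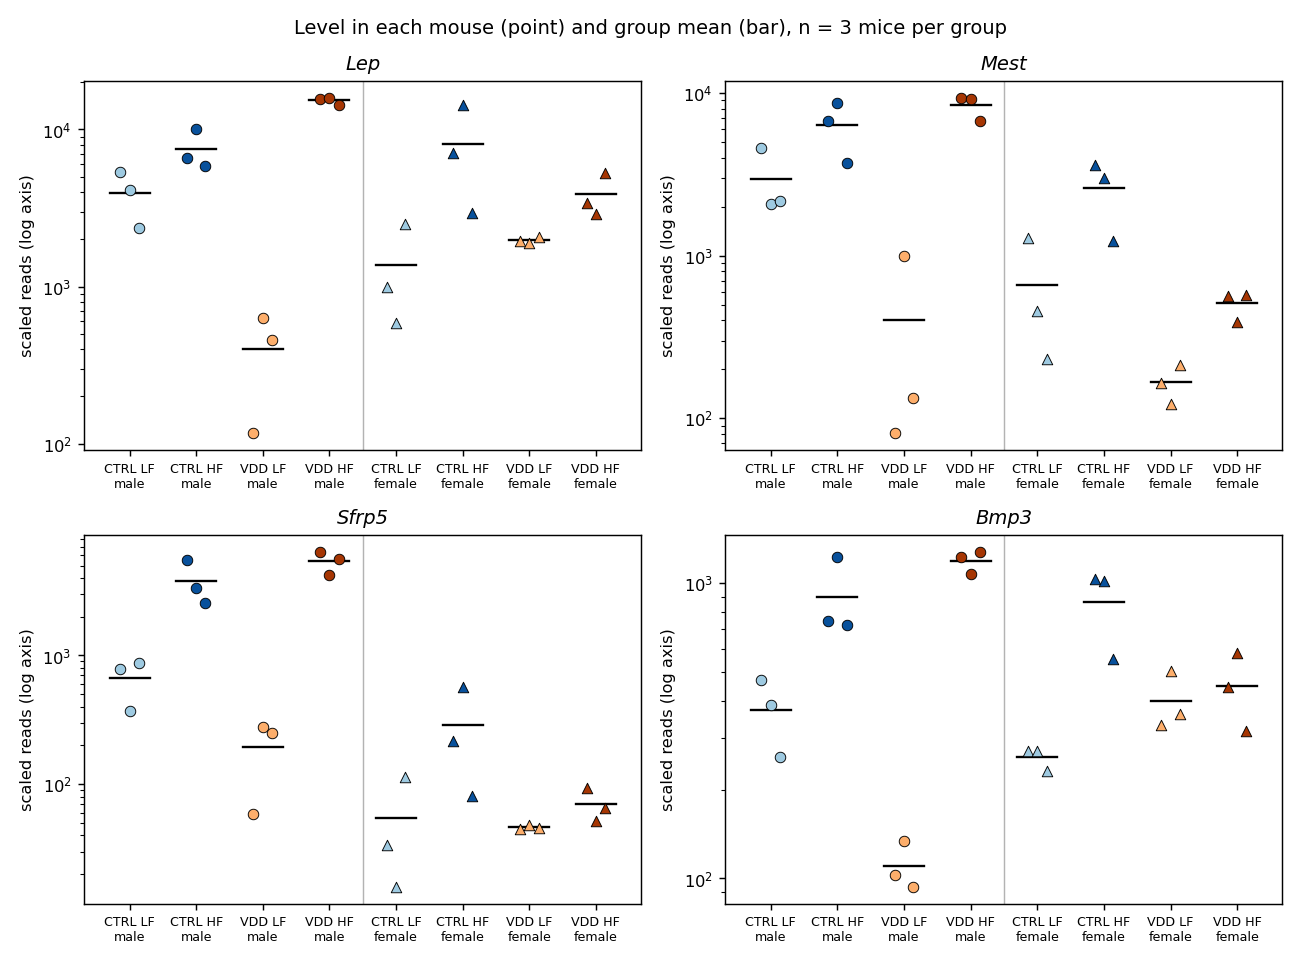
Scaled reads (log axis) of Lep, Mest, Sfrp5 and Bmp3 in each of the 24 mice, with circles for males, triangles for females and a bar for the mean of the 3 mice of a group. The 3 VDD LF males lay at the bottom of the males for each gene and the VDD HF males at or near the top, with Lep from 117 to 629 against 14378 to 15908 scaled reads.

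Counted over the comparisons of LF with HF, all 4 genes were higher without overlap in VDD HF males, where 17.0% of all 15965 tested genes were higher and 16.5% lower in that way. In CTRL HF males 3 of 4 were higher without overlap, against 13.0% of 15583 genes higher and 11.7% lower. In CTRL HF females 2 of 4 were higher without overlap, against 16.9% of 16563 genes higher and 18.2% lower. In VDD HF females 3 of 4 were higher without overlap, against 5.55% of 15923 genes higher and 6.06% lower. None of the 4 was lower without overlap in HF in any of these comparisons. As the 4 genes were chosen on these libraries, nothing is read from their share, and no call by p-value is given for them. With 1 library left out, the log2 difference of VDD LF vs. VDD HF males was 4.84 to 6.05 for Lep, 4.52 to 6.33 for Mest, 4.34 to 5.45 for Sfrp5 and 3.33 to 3.59 for Bmp3. The lowest values of Lep, Mest and Sfrp5 were those without VDD LF male 2078, and the highest of Mest was that without VDD LF male 2302.

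At the same offspring diet, the offspring of VDD mothers can be set beside those of CTRL mothers. As the litters are not known, a difference between litters cannot be told apart from one of maternal diet. On the LF diet, all 4 genes were lower in VDD males than in CTRL males and no values overlapped, where 6.59% of 15438 tested genes were lower and 6.83% higher in this way. The log2 difference was -3.52 (SE 0.82) for Lep and -3.62 (SE 1.17) for Mest. It was -1.97 (SE 0.81) for Sfrp5 and -1.71 (SE 0.30) for Bmp3. As fold, the CTRL LF males were 11.5-fold higher in Lep, 12.3-fold in Mest, 3.91-fold in Sfrp5 and 3.26-fold in Bmp3. In bulk tissue, fewer cells that express a gene and less of its RNA per cell cannot be told apart. The study described the adiposity index of VDD LF males as lower than that of CTRL LF males, but not significantly. No source used here gives that index for the sequenced mice.

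On the HF diet, the VDD males were above the CTRL males in all 4 genes by their means, but only Lep did not overlap (log2 difference 1.05, SE 0.25). Of 16013 tested genes, 5.04% were higher and 5.25% lower without overlap in this comparison. The log2 difference was 0.46 (SE 0.40) for Mest, 0.55 (SE 0.38) for Sfrp5 and 0.43 (SE 0.26) for Bmp3.

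In females on the LF diet the direction differed from gene to gene, and Mest was lower in VDD females (log2 difference -1.66, SE 0.76) and Bmp3 higher (0.61, SE 0.20), both without overlap. Lep (0.79, SE 0.62) and Sfrp5 (0.22, SE 0.80) overlapped. Of 16046 tested genes, 8.48% were higher and 9.74% lower without overlap. On the HF diet, the means of all 4 genes were lower in VDD females, and Mest alone did not overlap, at -2.23 (SE 0.51) or a 4.70-fold difference. Lep differed by -0.83 (SE 0.72), Sfrp5 by -1.63 (SE 0.85) and Bmp3 by -0.93 (SE 0.39), where 11.1% of 16480 tested genes were higher and 11.8% lower without overlap.

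**Figure D2:**
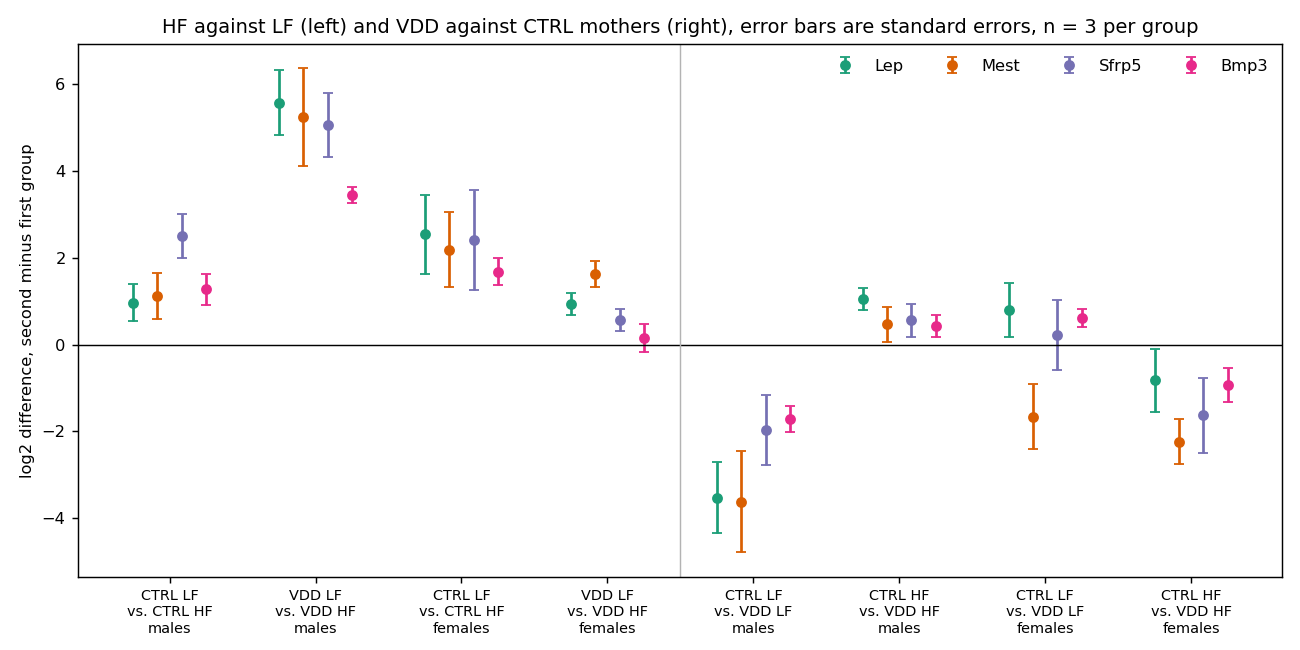
Log2 difference (second group minus first, vertical axis) of the 4 genes in the 8 comparisons, as points with bars of 1 SE and 3 mice per group. For each gene the largest difference is that of VDD LF vs. VDD HF males, from 3.44 for Bmp3 to 5.57 for Lep, and VDD LF males have all 4 points below 0 against CTRL LF males.

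The HF difference itself can be set against the diet of the mother. In males, the HF difference of Lep was larger in VDD than in CTRL offspring by 4.60 on the log2 scale (SE 0.85). The same difference of differences was 4.11 (SE 1.23) for Mest, 2.55 (SE 0.89) for Sfrp5 and 2.16 (SE 0.39) for Bmp3. In females it had the other sign for each gene. It was -1.63 (SE 0.94) for Lep, -0.59 (SE 0.91) for Mest, -1.86 (SE 1.17) for Sfrp5 and -1.55 (SE 0.44) for Bmp3. In the models of maternal by offspring diet over all genes, 0% of 16925 tested genes in males and 0% of 17430 in females were called by limma and limma-voom, with 654 and 1352 genes at an unadjusted p under 0.05 in limma. Set against sex, the HF difference of VDD males exceeded that of VDD females by 4.64 for Lep (SE 0.79), 3.62 for Mest (SE 1.15), 4.50 for Sfrp5 (SE 0.78) and 3.30 for Bmp3 (SE 0.36). In offspring of CTRL mothers, the same differences ran from -1.59 (SE 0.99) for Lep to 0.09 (SE 1.25) for Sfrp5.

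Sfrp5 was higher in males than in females without overlap in each of the 4 pairs of groups. Of all genes with at least 10 scaled reads in at least 3 of the 6 libraries, males were higher without overlap in 12.1% and lower in 12.6% in CTRL LF (15904 genes), 12.3% and 12.7% in CTRL HF (16105), 7.56% and 7.36% in VDD LF (15995) and 13.6% and 13.8% in VDD HF (16028). For Sfrp5 the males were 15.6-fold higher in CTRL LF, 16.6-fold in CTRL HF, 3.41-fold in VDD LF and 76.8-fold in VDD HF. Mest was higher in males without overlap in CTRL LF (5.33-fold), CTRL HF (2.52-fold) and VDD HF (16.7-fold), and overlapped in VDD LF (1.36-fold). Lep and Bmp3 changed sides with the diet in offspring of VDD mothers. In VDD LF, females were 6.09-fold higher in Lep and 3.59-fold higher in Bmp3 than males, and in VDD HF, males were 4.10-fold higher in Lep and 2.74-fold higher in Bmp3 than females, all 4 without overlap. In offspring of CTRL mothers, the sexes overlapped in both genes on both diets.

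In the order of the 8 group means, VDD HF males were the highest group for all 4 genes. VDD LF males were the lowest for Lep and Bmp3, and VDD LF females for Mest and Sfrp5. For Sfrp5 the lowest group depended on the mean, since by geometric mean CTRL LF females (39.6) lay below VDD LF females (46.2). For Lep the order was VDD HF males (15320 ± 824 SD, n = 3), CTRL HF females (8117 ± 5774), CTRL HF males (7528 ± 2297), CTRL LF males (3946 ± 1505), VDD HF females (3864 ± 1272), VDD LF females (1966 ± 84.5), CTRL LF females (1364 ± 1016) and VDD LF males (400 ± 260.5) in scaled reads. Neighbours in that order did not overlap at the first, the third and the fifth step. For Sfrp5 the only step without overlap lay between CTRL HF males (3787 ± 1526) and CTRL LF males (674 ± 266), and for Bmp3 between CTRL LF females (257 ± 22.7) and VDD LF males (110 ± 21.1). For Mest all neighbours overlapped, from VDD HF males (8448 ± 1466) down to VDD LF females (166 ± 45.6). The ratio of the highest to the lowest library was 136 for Lep, 116 for Mest, 404 for Sfrp5 and 13.7 for Bmp3. By SD of the log2 level over the 24 libraries, the genes lay at percentiles 96.5, 98.1, 99.1 and 87.0 of 18399 genes.

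Levels of the 4 genes varied together. Over the 12 males, Pearson's r of the log2 levels was 0.96 for Lep with Mest, 0.93 for Lep with Sfrp5 and 0.96 for Lep with Bmp3. Over the 12 females the same pairs had r of 0.53, 0.93 and 0.74. Over all 24 mice they had r of 0.78, 0.67 and 0.91. The points share the 8 groups, so with each library taken as its deviation from its group mean, r over 24 became 0.45, 0.82 and 0.34. Mest with Sfrp5 had r of 0.90 in males, 0.60 in females and 0.31 by deviations. Sfrp5 with Bmp3 had r of 0.93, 0.72 and 0.17, and Mest with Bmp3 0.93, 0.61 and 0.44. Among mice of one group, Lep with Sfrp5 thus had the highest r of these pairs.

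**Figure D3:**
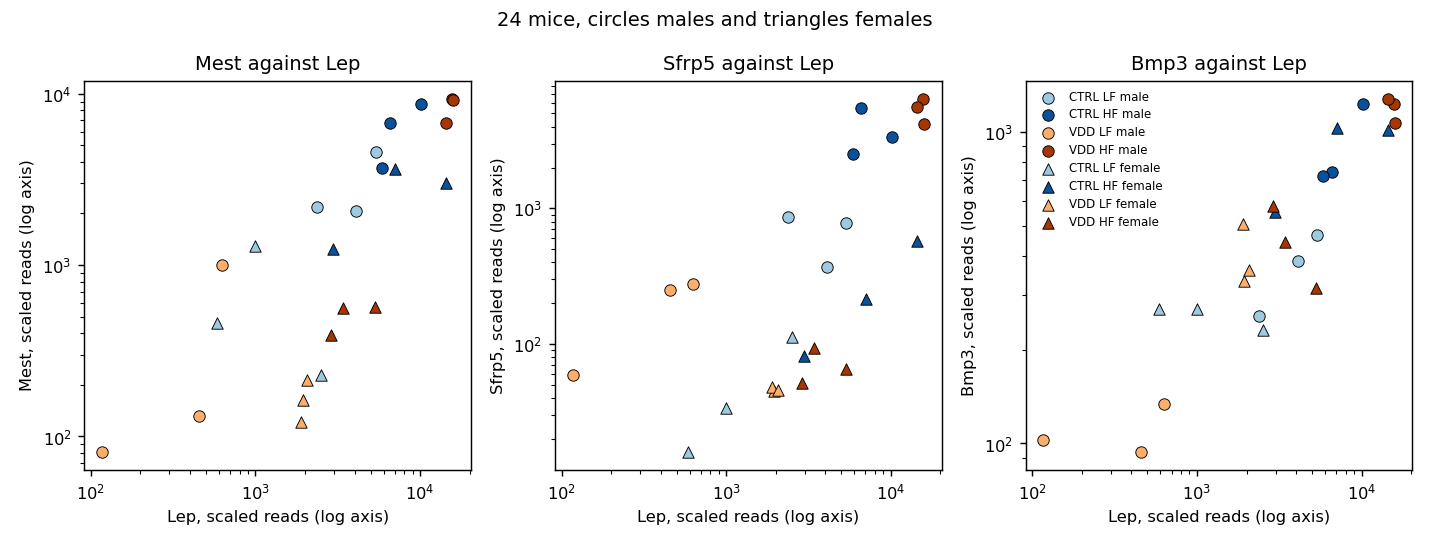
Scaled reads of Mest, Sfrp5 and Bmp3 against those of Lep (both log axes) in the 24 mice, with circles for males and triangles for females and the group given by colour. The females lie below the males in Sfrp5 at like levels of Lep, and the VDD LF males lie at the low end of Lep in all 3 plots.

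Among 12173 genes with a mean of at least 50 scaled reads, the 5 named genes whose levels over the 24 libraries were most like those of Lep were Prr32 (r = 0.92), Bmp3 (0.91), Cavin3 (0.90), which encodes a coat protein of caveolae, Rtn4rl1 (0.90) and Jpt2 (0.88). For Mest they were Msn (0.94), which encodes moesin, a linker of membrane and actin, Edem1 (0.94), Gm36827 (0.94), Akap12 (0.93) and Anxa5 (0.93). For Sfrp5 they were Prelp (0.97), an extracellular matrix gene, Gltp (0.96), Cacna1e (0.95), Slc5a7 (0.95) and Gm5627 (0.94). For Bmp3 they were Lep (0.91), Rtn4rl1 (0.91), Daam1 (0.88), Sri (0.88) and Lxn (0.87). Ranked by deviations from the group means, 1 of these 5 remained among the first 5 for Mest (Akap12) and for Sfrp5 (Prelp), and 0 for Lep and Bmp3.

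Around each of the 4 genes, a list of its pathway or neighbourhood was set beside it. These lists, the marker lists and the partner genes were also chosen with earlier results of these libraries known. Their p-values and counts below therefore describe these libraries and are no independent test. Calls by limma needed an adjusted p below 0.01 together with a fold over 1.5 or under 0.66. None of the genes of these lists was called in any of the 8 comparisons or in the 2 models of maternal by offspring diet, by limma in its main setting or by limma-voom. Over all genes, 0.0578% were called in CTRL LF vs. CTRL HF males and 0.0752% in VDD LF vs. VDD HF males (limma), and 0% in the other comparisons (limma and limma-voom), with 804 to 4762 genes per comparison at an unadjusted p under 0.05 in limma. With 1 limma fit per sex, 8 list genes were called in VDD LF vs. VDD HF males, beside 614 of 16925 over all genes. Further settings are given in the closing section. The study itself used DESeq2, also with an adjusted p below 0.01 and a fold limit, and reported many more genes in each of the 8 comparisons. Why the methods differ was not tested. In limma, list genes at an unadjusted p under 0.05 in VDD LF vs. VDD HF males numbered 7 of 17 for leptin receptor signalling, 6 of 39 for Wnt, 8 of 36 for BMP, 8 of 11 for the imprinted growth network and 5 of 9 for caveolae. Over all genes, 4138 of 15965 were at an unadjusted p under 0.05 in that comparison. Leptin acts through its receptor Lepr and the factor Stat3, with Socs3 as the feedback inhibitor. Of 17 genes of leptin receptor signalling, all tested, 4 were higher and 4 lower without overlap in VDD HF than in VDD LF males, where 17.0% and 16.5% of all tested genes were, and their median log2 difference was -0.01 beside 0.01 over all genes. Lepr itself was lower in the HF group in VDD males (62.4 ± 9.98 to 33.4 ± 13.8 normalized reads, SD, n = 3, log2 difference -0.95, limma adjusted p = 0.172) and in VDD females (-0.98, limma adjusted p = 0.837), both without overlap. In CTRL males the mean of Lepr was also lower in HF, with overlap (87.8 ± 30.5 to 46.7 ± 30.3 normalized reads, limma adjusted p = 0.263). The HF difference of Lepr in VDD males minus that in CTRL males was 0.04 (SE 0.70). In CTRL females Lepr differed by 0.22 with overlap (limma adjusted p = 0.589). Stat3 overlapped in all comparisons of LF with HF, with log2 differences from -0.38 to 0.11. Socs3 was higher without overlap in CTRL HF females (0.78, limma adjusted p = 0.0708).

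The Wnt list holds the secreted antagonists related to Sfrp5 among ligands, receptors and targets. Of its 44 tested genes, 16 were higher and 4 lower without overlap in CTRL HF than in CTRL LF females (16.9% and 18.2% of all genes), with a median log2 difference of 0.55 beside 0.01 over all genes. Of 43, 0 were higher and 14 lower in VDD HF than in CTRL HF females (11.1% and 11.8% of all genes), with a median of -0.53 beside 0.00. In both comparisons 4 of 6 stromal progenitor and 4 of 6 mesothelium markers moved the same way without overlap, and their part was not tested. In VDD males, where Sfrp5 was 33.2-fold higher in HF, 3 of 39 were higher and 4 lower (17.0% and 16.5% of all genes), with a median of 0.32 beside 0.01. Sfrp4, another secreted Wnt antagonist, had 135 ± 24.1 normalized reads in CTRL LF and 419 ± 109 in CTRL HF males (log2 difference 1.62, limma adjusted p = 0.0193). Sfrp4 was also higher without overlap in CTRL HF females (1.97, limma adjusted p = 0.0598) and lower in VDD HF than in CTRL HF females (-2.26, limma adjusted p = 0.222). Sfrp1 was lower in VDD HF than in CTRL HF females (-1.83, limma adjusted p = 0.177) without overlap, and Sfrp2 overlapped in all 8 comparisons. Nkd1, an intracellular inhibitor of Wnt signals, had 98.9 ± 58.6 normalized reads in VDD LF and 304 ± 26.5 in VDD HF males (1.82, limma adjusted p = 0.0805). Nkd1 was also higher in HF without overlap in CTRL males (0.73, limma adjusted p = 0.0893) and CTRL females (0.94, limma adjusted p = 0.0459), and lower in VDD HF than in CTRL HF females (-1.62, limma adjusted p = 0.131). Axin2, a common target of Wnt signals, was higher without overlap in CTRL HF males (0.74, limma adjusted p = 0.155) and CTRL HF females (0.58, limma adjusted p = 0.0671). Wnt5a and Wnt10b, ligands, overlapped in all 8 comparisons, and Frzb had at most 55.3 scaled reads.

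The BMP list holds ligands, receptors, inhibitors and targets. Of its 38 tested genes, 10 were higher and 3 lower without overlap in CTRL HF than in CTRL LF females (16.9% and 18.2% of all genes), with a median log2 difference of 0.31 beside 0.01 over all genes. In VDD LF vs. VDD HF males, 8 of 36 were higher and 2 lower (17.0% and 16.5% of all genes), with a median of 0.26. In VDD HF against CTRL HF females, 1 of 38 was higher and 7 lower (11.1% and 11.8% of all genes). Bmp4, a ligand that promotes the commitment of fat precursors, had 159 ± 7.87 normalized reads in CTRL LF and 297 ± 18.7 in CTRL HF females (log2 difference 0.90, limma adjusted p = 0.0206), and in VDD HF females it was lower than in CTRL HF females (-1.39, limma adjusted p = 0.166), both without overlap. Gdf10, the close relative of Bmp3, differed by -0.55 in the latter comparison (limma adjusted p = 0.205) and by 0.61 with overlap in VDD LF vs. VDD HF males. Id1, a target of BMP signals, was higher in VDD than in CTRL females on LF (0.54, limma adjusted p = 0.391) and HF (0.71, limma adjusted p = 0.193), both without overlap. The receptor genes Acvr2b and Bmpr1a overlapped in all 8 comparisons, except Bmpr1a in VDD HF against CTRL HF females (-0.46, limma adjusted p = 0.222).

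Copg2, which overlaps the end of Mest on the other strand, had log2 differences between -0.14 and 0.08 in the 8 comparisons and overlapped in each, beside -3.62 to 5.24 for Mest. Of the 14 genes of the imprinted growth network, 11 were tested in VDD LF vs. VDD HF males, and 6 were higher and 2 lower without overlap, against 17.0% and 16.5% of all genes (median log2 difference 0.64 beside 0.01 over all genes). In CTRL HF against CTRL LF females, 5 of 12 were higher and 3 lower without overlap (16.9% and 18.2% of all genes, median 0.50). In CTRL HF against CTRL LF males, 3 of 11 were higher and 1 lower (13.0% and 11.7% of all genes, median 0.35). Nnat, an imprinted gene of the paternal allele like Mest, was higher in HF without overlap in all 4 comparisons of LF with HF. It had 5400 ± 2629 normalized reads in VDD LF and 19561 ± 3974 in VDD HF males (1.95, limma adjusted p = 0.0419), and its log2 difference was 1.02 in CTRL males, 2.05 in CTRL females and 1.65 in VDD females (limma adjusted p = 0.0775, 0.1 and 0.837). Peg3, also of the paternal allele, was lower in HF in VDD males (-0.73, limma adjusted p = 0.111) and CTRL females (-1.49, limma adjusted p = 0.0611) without overlap. Plagl1 was higher in HF in VDD males (0.64, limma adjusted p = 0.146) without overlap. Igf2 and Dlk1 had at most 19.2 scaled reads in any library.

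Caveolae are membrane pits that are dense on large adipocytes. Of 9 tested genes of caveolae, 5 were higher and 0 lower without overlap in VDD HF than in VDD LF males (17.0% and 16.5% of all genes, median log2 difference 1.29 beside 0.01), and 4 were lower and 0 higher in VDD LF than in CTRL LF males (6.59% and 6.83% of all genes, median -0.60 beside 0.01). In CTRL HF males, 4 of 8 tested were higher and 0 lower than in CTRL LF males (13.0% and 11.7% of all genes, median 0.30 beside -0.02). Cav1, their main coat gene, had 11833 ± 2196 normalized reads in VDD LF and 38125 ± 2009 in VDD HF males (1.70, limma adjusted p = 0.0209). Cavin1 differed by 1.29 in the same comparison (limma adjusted p = 0.0454). In CTRL LF vs. CTRL HF males, Cav1 differed by 0.71 (limma adjusted p = 0.251) and Cavin1 by 0.53 (limma adjusted p = 0.302), both without overlap. In CTRL HF against CTRL LF females, 2 of 8 tested genes of caveolae were higher and 0 lower without overlap (16.9% and 18.2% of all genes, median 0.44). In VDD HF against VDD LF females, 2 of 8 were higher and 0 lower (5.55% and 6.06% of all genes, median 0.12). Cav1 and Cavin1 overlapped in all 4 comparisons of females.

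**Figure D4:**
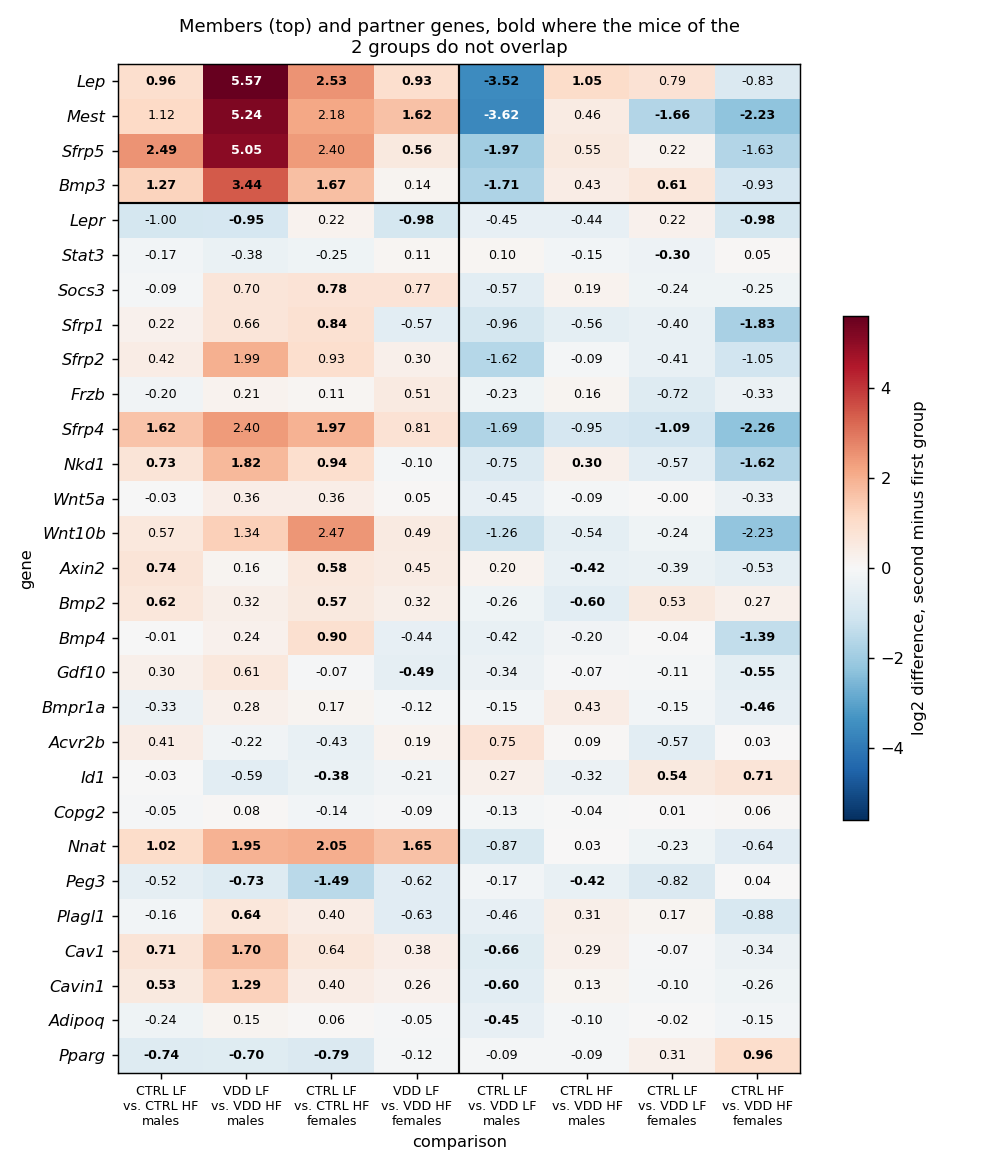
Log2 difference (colour and printed value, second group minus first) of the 4 genes, above the line, and of 25 partner genes of their pathways, below it, in the 8 comparisons. Values are bold where the 3 mice of one group do not overlap the 3 of the other, as for 5.57 of Lep and 1.70 of Cav1 in VDD LF vs. VDD HF males, while Copg2 stayed between -0.14 and 0.08.

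Adipoq, the hormone gene that all adipocytes express, had a log2 difference of 0.15 (SE 0.20) between VDD LF and VDD HF males with overlap, and -0.45 (SE 0.24) in CTRL LF vs. VDD LF males without overlap. Pparg, the main regulator of adipocyte genes, was lower in HF without overlap in CTRL males (-0.74, limma adjusted p = 0.119), VDD males (-0.70, limma adjusted p = 0.0615) and CTRL females (-0.79, limma adjusted p = 0.0378). With reads scaled to the summed adipocyte markers, the log2 difference of VDD LF vs. VDD HF males was 5.72 for Lep, 5.39 for Mest, 5.20 for Sfrp5 and 3.59 for Bmp3, and that of CTRL LF vs. VDD LF males was -3.27, -3.37, -1.71 and -1.45.

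Markers of other cells moved with several comparisons, and their part in the results was not tested. None of these marker genes was called by limma in its main setting. In VDD HF against VDD LF males, where 17.0% of all genes were higher and 16.5% lower without overlap, 1 of 6 macrophage markers was higher (median log2 difference 1.38), 1 of 6 stromal progenitor markers higher (0.58), 2 of 7 brown adipocyte markers lower (-1.14), 1 of 8 adipocyte markers lower (-0.26) and 0 of 6 mesothelium markers either. The summed macrophage markers were 2208 to 4808 scaled reads in VDD LF and 4095 to 10720 in VDD HF males. In CTRL HF against CTRL LF males (13.0% higher, 11.7% lower), 3 of 6 macrophage markers were higher (0.76), 2 of 6 stromal progenitor markers higher (0.33), and 2 of 5 tested brown adipocyte and 2 of 8 adipocyte markers lower (-1.05 and -0.28).

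In CTRL HF against CTRL LF females (16.9% higher, 18.2% lower), 4 of 6 stromal progenitor, 4 of 6 mesothelium and 3 of 6 macrophage markers were higher without overlap (medians 0.75, 0.96 and 0.70), and 4 of 7 brown adipocyte and 4 of 8 adipocyte markers lower (-2.66 and -0.44). In VDD HF against VDD LF females (5.55% higher, 6.06% lower), 1 of 6 macrophage markers was higher, and no marker of the brown adipocyte, stromal progenitor, mesothelium and adipocyte lists was without overlap.

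In VDD LF against CTRL LF males (6.83% higher, 6.59% lower), 3 of 7 brown adipocyte markers were higher without overlap (median 1.31), and 2 of 6 stromal progenitor and 1 of 8 adipocyte markers lower (-0.65 and -0.25). In VDD HF against CTRL HF males (5.04% higher, 5.25% lower), 2 of 5 tested brown adipocyte markers were higher. In VDD LF against CTRL LF females (8.48% higher, 9.74% lower), 2 of 6 mesothelium and 1 of 6 stromal progenitor markers were lower (-0.34 and -0.14). In VDD HF against CTRL HF females (11.1% higher, 11.8% lower), 5 of 7 brown adipocyte and 3 of 8 adipocyte markers were higher (4.16 and 0.48), and 4 of 6 stromal progenitor and 4 of 6 mesothelium markers lower (-0.96 and -1.85). The summed brown adipocyte markers were 3051 to 38938 scaled reads in these VDD HF females and 271 to 934 in CTRL HF females, and the summed mesothelium markers 3065 to 6266 and 7374 to 14177.

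Skeletal muscle markers were uneven in the groups with the largest differences, with sums of 233, 44752 and 927045 scaled reads in VDD LF males 2078, 2302 and 2310 and of 206618, 318119 and 1481 in VDD HF males 2298, 2307 and 2308. Without libraries above 10000, which left 1 VDD LF and 1 VDD HF male, the log2 difference was 6.93 for Lep, 6.36 for Mest, 6.55 for Sfrp5 and 3.62 for Bmp3. Between CTRL LF and VDD LF males it was -4.71, -4.68, -3.23 and -1.59 in the same order, with 1 VDD LF male left. In CTRL LF vs. CTRL HF females, with 2 mice left in each group, it was 3.69 for Lep, 2.08 for Mest, 3.85 for Sfrp5 and 1.89 for Bmp3. Without the libraries with renal in their names, the log2 difference of VDD LF vs. VDD HF males was 6.03, 6.26, 5.62 and 3.67 in that order. Among the 3 mice of its group, the library so named was the highest in Lep in 4 of 6 groups, in Mest in 4, in Sfrp5 in 1 and in Bmp3 in 3.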

How the data were processed

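RNA-seq (TruSeq Stranded mRNA) of 24 retroperitoneal adipose samples was analysed from 8 tables, 1 for each comparison of 2 groups. Per the methods of the study and its processing notes, the authors aligned reads with STAR 2.7.0d, assembled transcripts with Cufflinks 2.2.1, counted with featureCounts 1.6.1 and normalized with DESeq2. The deposited log2 values are log2(normalized reads + 1) of 6 libraries over 56899 entries. Of these, 4 with duplicated names were left out. The fold changes and p-values that the authors deposited beside them were not used.

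Undoing the log2 and the size factor gave whole reads for 100% of values within 0.02. These were scaled together by the median of ratios for levels across groups. Column names carry mouse numbers that the labels lack, so each column was assigned to its group only. limma 3.58.1 (R 4.3.3, lmFit and eBayes with trend) was fitted to each table keeping genes that reached 10 normalized reads in 3 or more libraries, with Benjamini-Hochberg adjustment. Calls needed an adjusted p below 0.01 together with a fold over 1.5 or under 0.66. The fit was first run on simulated data in which 200 genes were changed. Models of maternal by offspring diet used the 12 libraries of a sex. Alternatives were limma-voom, 1 fit per sex, other scalings, a pseudocount of 10, no filter and leaving out libraries. Tables were prepared with Python 3.11.15, numpy 2.4.6 and pandas 2.3.3 and drawn with matplotlib 3.10.9.

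The 4 genes, the pathway and marker lists and the partner genes were chosen with earlier results of these data known. Named genes are the 4, fixed partners from each list, list genes that were called in the comparisons as reported (at most 2 each) and the 5 genes most like each of the 4. The 4 genes were in the fits, which cover all genes, but as they were chosen on these libraries no p-value or call is given for them.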

Additional observations from a re-analysis of the deposited data

Results flagged for a closer look

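The values below were flagged because the groups did not overlap in either of 2 comparisons and differed in opposite directions. The 4 genes and their fixed partner genes were searched for this over pairs of comparisons. The share of all genes that would be flagged in this way was not computed. Lep was lower without overlap in VDD than in CTRL males on the LF diet (log2 difference -3.52), as were 6.59% of all tested genes. On the HF diet Lep was higher without overlap (1.05), as were 5.04% of all tested genes. For Lep this contrast is the difference of differences of 4.60 (SE 0.85) of the males, and in the model of maternal by offspring diet in males 0 of 16925 genes were called by limma or limma-voom (654 at an unadjusted p under 0.05 in limma). Bmp3 was lower without overlap in VDD than in CTRL males on the LF diet (-1.71), as were 6.59% of all tested genes. In VDD females on the same diet Bmp3 was higher without overlap than in CTRL females (0.61), as were 8.48% of all tested genes. Nkd1 was higher in VDD than in CTRL males on the HF diet (0.30, limma adjusted p = 0.941) and lower in VDD than in CTRL females on it (-1.62, limma adjusted p = 0.131), without overlap in both. Of all tested genes, 5.04% were higher without overlap in the former comparison and 11.8% lower in the latter. For Bmp3 and Nkd1 the difference between the sexes was not tested.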

How the results depend on the processing

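No paired analysis was possible because the columns of the tables carry none of the replicate numbers of the labels. The list genes named in this part were chosen after their values were seen. In VDD LF vs. VDD HF males, 0 called list genes became 1 with a pseudocount of 10 or no filter (Inhbb), 8 with 1 fit per sex (Fzd4, Inhbb, Peg10, Nnat, Cav1, Cavin1, Cavin3 and Ehd2) and 0 to 4 with 1 library left out, the 4 (Inhbb, Peg10, Cav1 and Cavin3) without VDD LF male 2310. Over all genes, the 12 calls among 15965 genes of that comparison became 47 with a pseudocount of 10 and 37 among 30240 genes with no filter. They became 614 with 1 fit per sex, 264 without VDD LF male 2310 and 0 with limma-voom. In CTRL LF vs. CTRL HF males, no filter gave 1 list gene (Sfrp4) in place of 0. Over all genes, 39 of 30321 were called with no filter there, against 9 of 15583 with the filter. In CTRL HF vs. VDD HF males, leaving out 1 library gave 0 to 2 list genes, the 2 (H19 and Cavin4) without VDD HF male 2308. Over all genes, 142 of 15726 were called in that setting, 141 of them higher in VDD HF males. The VDD HF males left, 2298 and 2307, had skeletal muscle sums of 206618 and 318119 scaled reads, beside 1220 to 3034 in CTRL HF males. The part of muscle in these calls was not tested.

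With 1 library left out, 190 of 192 log2 differences of the 4 genes kept their sign. Without VDD LF male 2078, CTRL LF vs. VDD LF males became -2.80 for Lep, -2.90 for Mest and -1.26 for Sfrp5, and without VDD LF male 2302 Mest became -4.70. Between LF and HF females of CTRL mothers, Lep became 3.13 without CTRL HF female 2292, Mest 2.85 without CTRL LF female 2124, and Sfrp5 1.77 and 3.14 without CTRL LF females 2125 and 2335 and 1.69 and 3.11 without CTRL HF females 2291 and 2292. Against VDD HF females, Lep became -1.42 without CTRL HF female 2292, and Sfrp5 -0.92 and -2.34 without 2291 and 2292. With another library left out, this Lep difference shrank to -0.26. Against VDD LF females, Mest became -0.99 without CTRL LF female 2124 and Sfrp5 0.96 without 2335. Bmp3 in VDD LF vs. VDD HF females became -0.07 without VDD HF female 2083, and Sfrp5 in CTRL LF vs. VDD LF females became -0.42 without CTRL LF female 2125. The pseudocount of 10 moved none of 32 differences by over 1 SD. Scaled to total reads, Bmp3 in VDD males moved to 3.68. Scaled to adipocyte markers, Bmp3 in CTRL LF vs. CTRL HF females moved to 2.13 and Sfrp5 in VDD LF vs. VDD HF females to 0.86. By reads as a share of the library total, the groups kept their rank in 8 of 8 cases for Lep and Sfrp5 and in 6 for Mest and Bmp3.

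The next settings were chosen after the data were seen. Without the libraries with renal in their names, Mest in CTRL LF vs. CTRL HF males moved to 1.84 and Bmp3 in VDD males to 3.67. Without libraries above 10000 summed skeletal muscle reads, Lep and Sfrp5 moved to 6.93 and 6.55 in VDD LF vs. VDD HF males, 3.69 and 3.85 in CTRL LF vs. CTRL HF females and -4.71 and -3.23 between CTRL LF and VDD LF males, and Bmp3 to -1.44 in CTRL HF vs. VDD HF females. Bmp3 in VDD LF vs. VDD HF females became -0.19. The cause of these moves was not tested.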
